A study of Mus musculus with 27 samples.

Results

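The genes described here are 10 core components of the G1 phase machinery, the part of the cell cycle in which a resting T cell decides whether to copy its DNA. They are the D-type cyclins Ccnd2 and Ccnd3, the E-type cyclins Ccne1 and Ccne2, the kinases Cdk2, Cdk4 and Cdk6, and the kinase inhibitors Cdkn1b (p27), Cdkn2c (p18) and Cdkn2d (p19). Members were taken by gene symbol from a table of 26802 genes, and all 10 were found. All 10 passed the filter on low counts that left 10493 genes for testing.

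D-type cyclins bind CDK4 or CDK6 and phosphorylate the retinoblastoma protein, which releases E2F transcription factors. E2F factors switch on cyclin E and the genes of DNA replication, and cyclin E with CDK2 completes the entry into S phase. p27 binds and inhibits cyclin E with CDK2, whereas p18 and p19 belong to the INK4 family and bind CDK4 and CDK6. In naive T cells p27 is known as an abundant brake that is lost after antigen receptor and CD28 signals.

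RNA was sequenced from T cells of B6 mice, selected magnetically by removal of other cells from pooled lymph node and spleen, and the 27 libraries fall into 9 groups of 3 by genotype, subset and culture. Raptor KO cells carried a Cd4-cre transgene with the floxed Rptor allele Rptortm1.1Dmsa, Rictor KO cells carried it with the floxed allele Rictortm1.1Klg, and wild-type (WT) cells are labelled B6-wt, with no Cre control. Raptor belongs to mTORC1 and Rictor to mTORC2, the alternative complexes of the growth kinase mTOR, so the knockouts ask how each complex bears on T cell gene expression. Stimulated cells were held for 48 h on plates coated with 10 µg/ml of antibodies to CD3 and CD28, and resting cells for 48 h in 5 ng/ml IL-7. Raptor KO and WT cells were present stimulated and resting, as CD8+ and CD4+ cells, and Rictor KO cells only as stimulated CD8+ cells. Dead cells were removed by a final sort. Because the Cre is driven by Cd4, deletion begins in the thymus, before the CD8+ and CD4+ lineages part. Neither the ages of the mice nor whether the libraries of a group came from separate animals is stated, so p-values measure the spread between these samples, which may be technical.

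Library totals ran from 8640699 to 16817347 counts, of which the ribosomal precursor Rn45s took 81.1% to 88.4%, and the effective library size after its removal was 1121926 to 3767519. The 10 members were therefore read with few counts, from a median of 10 per library for Cdkn2c and 29 for Cdkn2d to 615 for Ccnd2. Protein-coding genes held 31.8% to 63.6% of the remaining counts in stimulated libraries and 18.7% to 45.2% in resting ones. Markers of T cells summed to 488 to 1356 CPM in every library, and Cd8a, Cd8b1 and Cd4 separated the subsets. Rptor in Raptor KO cells and Rictor in Rictor KO cells did not pass the test against WT, so the genotypes rest on the labels. Levels are CPM, counts scaled by the effective library size to the usual common total, levels compared between genes are CPM per kilobase of exon, and changes are log2 fold changes ± SE. Adjusted p-values come from edgeR's quasi-likelihood test, adjusted over every tested gene by the Benjamini-Hochberg method, and a gene was called at an adjusted p under 0.05. In such bulk samples fewer cells that express a gene and less of its RNA per cell cannot be told apart.

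The sequence before a start site is shown for 4 members that differ in behaviour below: Cdk4 and Ccne1, which were higher in stimulated than in resting cells, Cdkn1b, which was lower, and Ccnd3, which was not called. Ccnd3 has another start, whose sequence (chr17:47593217-47593435) is not printed. The sequences are RefSeq's, build GRCm38.p6, written 5′ to 3′ on the gene's strand, and cover the longest run within the 250 bases before the start that lies in no annotated exon. Capitals mark matches to CACGTG, the E-box bound by MYC family factors, or to the FOXO motif GTAAACA on either strand (TGTTTAC on the opposite strand).
Cdk4 (chr10:127063285-127063533, plus strand): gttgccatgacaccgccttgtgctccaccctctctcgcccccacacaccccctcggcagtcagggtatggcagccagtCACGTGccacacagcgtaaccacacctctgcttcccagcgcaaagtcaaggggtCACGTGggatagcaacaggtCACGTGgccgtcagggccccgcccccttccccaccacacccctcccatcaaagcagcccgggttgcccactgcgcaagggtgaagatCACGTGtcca
Ccne1 (chr7:38107535-38107740, minus strand): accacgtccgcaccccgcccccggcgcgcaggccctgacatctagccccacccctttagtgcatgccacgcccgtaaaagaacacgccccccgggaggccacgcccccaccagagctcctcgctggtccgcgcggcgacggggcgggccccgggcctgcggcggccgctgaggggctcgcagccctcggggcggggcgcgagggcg
Cdkn1b (chr6:134920151-134920400, plus strand): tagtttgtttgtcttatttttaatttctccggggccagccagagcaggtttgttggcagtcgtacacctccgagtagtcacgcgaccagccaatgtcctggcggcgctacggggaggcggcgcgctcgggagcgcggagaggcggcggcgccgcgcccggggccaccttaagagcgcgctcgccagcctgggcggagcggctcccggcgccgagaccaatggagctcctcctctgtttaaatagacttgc
Ccnd3 (chr17:47504801-47505050, plus strand): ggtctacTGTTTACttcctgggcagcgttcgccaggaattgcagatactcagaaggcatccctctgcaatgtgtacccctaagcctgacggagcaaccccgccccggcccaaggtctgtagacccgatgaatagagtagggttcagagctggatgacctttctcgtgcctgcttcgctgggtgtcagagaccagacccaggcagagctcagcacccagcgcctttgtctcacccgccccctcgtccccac

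The table of promoters holds windows of 300 bases (250 before and 50 after a start), 10 of them for 8 members, with Ccnd2 and Ccne2 not among them. The Cdk4 window held 4 matches to CACGTG, of which the nearest lies at positions -11 to -6 from the start. Of all 32851 windows, 7.15% held at least 1 match and 8 windows (0.0244%) held at least 4. Cdk6 and Cdkn2c each had a window with 1 match. The E-box was chosen after the Cdk4 sequence had been seen. The FOXO motif was in 3.65% of all windows and, among the members, in the window of the printed Ccnd3 start and not in that of its other start. An E2F motif (TTTCCCGC, TTTGGCGC, TTTCGCGC or TTTGCCGC, either strand) was in 2.26% of all windows and, among the members, in that of Cdk2, at positions -140 to -133 from the start, as GCGGGAAA on the opposite strand. No match of 1 motif overlaps one of another among the members. A match is a description of the letters and not a binding site.

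Stimulation was compared with rest in Raptor KO and WT cells of each subset. Ccnd2, both E-type cyclins and the 3 kinases rose, and p27 fell. In Raptor KO CD4+ cells 7 of the 10 members rose and 1 fell, beside 52% of all genes called (27.9% higher and 24.1% lower). In WT CD4+ cells 6 rose and 1 fell, beside 64.9% of all genes (32.4% higher and 32.5% lower). Raptor KO CD8+ cells had 7 higher and 1 lower, beside 55.6% of all genes (29.5% higher and 26% lower). WT CD8+ cells had 6 higher and 1 lower, beside 62.8% (32% higher and 30.8% lower). Ccnd2, Ccne1, Ccne2, Cdk2, Cdk4 and Cdk6 rose and Cdkn1b fell in all 4 settings, Cdkn2c rose in both settings of Raptor KO cells, and Ccnd3 and Cdkn2d were called in none. Over the 10 members the median log2 fold change was 1.63 in Raptor KO and 1.05 in WT CD4+ cells, and 1.62 in Raptor KO and 1.64 in WT CD8+ cells, beside medians between -0.03 and 0.04 over all genes. IL-7 was absent from the antibody cultures, so each of these effects includes its absence.

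**Figure D1:**
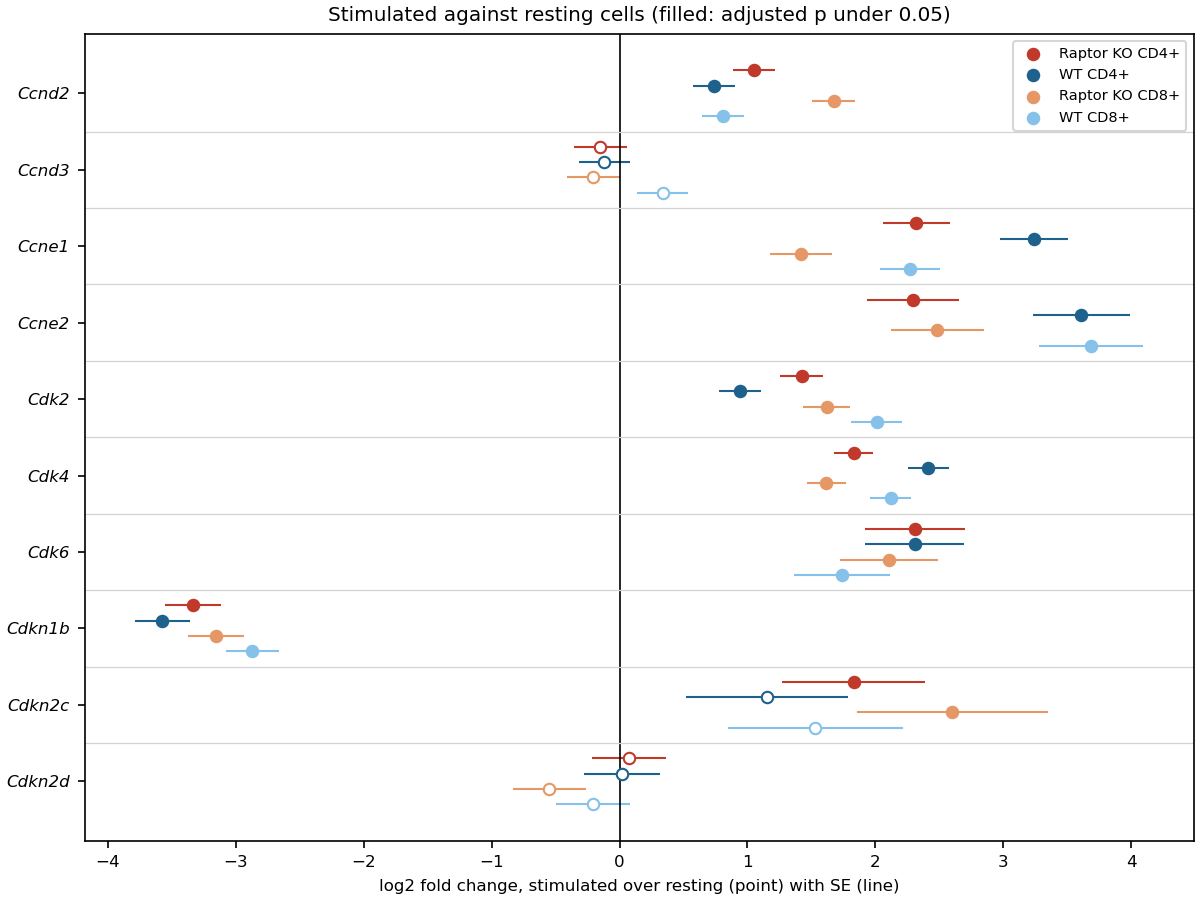
Log2 fold change of each member, stimulated over resting, in Raptor KO and WT CD4+ and Raptor KO and WT CD8+ cells. Points are estimates from edgeR, lines are 1 SE, and filled points passed an adjusted p of 0.05. The cyclins E and the kinases lie right of 0 and Cdkn1b left of it in all 4 settings, whereas no point of Ccnd3 or Cdkn2d is filled.

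Among the D-type cyclins, which link receptor signals to CDK4 and CDK6, Ccnd2 (ENSMUSG00000000184, GRCm38 chr6:127125162-127152193, minus strand) was the more abundant. It measured 397, 397 and 464 CPM in stimulated WT CD4+ libraries, against 222, 215 and 316 CPM in resting ones. It measured 425, 413 and 490.1 CPM in stimulated WT CD8+ libraries, against 247, 177 and 334 CPM in resting ones. The stimulated and resting libraries did not overlap in either subset, and the log2 fold change was 0.74 ± 0.16 in CD4+ and 0.81 ± 0.16 in CD8+ cells (adjusted p = 0.000139 and 4.6e-05). With Raptor deleted it was 1.05 ± 0.17 in CD4+ and 1.67 ± 0.17 in CD8+ cells (adjusted p = 9.28e-07 and 2.63e-11).

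Ccnd3 (ENSMUSG00000034165, chr17:47505051-47599691) was called in none of the 4 settings. Its group means spanned 61.0 CPM in stimulated Raptor KO CD4+ to 95.4 CPM in resting WT CD4+ cells, and each group overlapped its neighbour in the order of levels. Its log2 fold change with stimulation was -0.12 ± 0.20 in WT CD4+ cells (95% interval -0.51 to 0.27) and 0.34 ± 0.20 in WT CD8+ cells (-0.06 to 0.73). The Raptor KO values were -0.15 ± 0.21 in CD4+ and -0.21 ± 0.21 in CD8+ cells. The WT CD8+ value passed with no filter, with totals that keep Rn45s and without the resting library 3. With totals that keep Rn45s the median of all genes was 0.77, and the Ccnd3 value was 1.07, or 0.29 relative to that median. Ccnd3 shares 361 exon bases with Bysl on the opposite strand, and Bysl, itself at 33.4 to 44.6 CPM in stimulated WT CD4+ libraries against 7.65 to 18.0 CPM in resting ones, moved with stimulation. The strand setting of the counting is not stated, so reads of the pair cannot be told apart in the shared bases, which are 361 of the 8775 exon bases of Ccnd3.

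The E-type cyclins, which activate CDK2, had the largest log2 rises of the members in WT cells. Ccne1 (ENSMUSG00000002068, chr7:38097984-38107534) measured 39.6, 50.4 and 53.1 CPM in stimulated WT CD4+ libraries, against 4.87, 3.87 and 6.16 CPM in resting ones, a log2 fold change of 3.24 ± 0.27 (adjusted p = 6.71e-14). In WT CD8+ cells it measured 46.9, 57.3 and 59.1 CPM stimulated, against 9.22, 10.7 and 13.4 CPM resting (2.27 ± 0.23, adjusted p = 3.78e-11). The lowest stimulated library stood well above the highest resting one in both subsets. Ccne2 (ENSMUSG00000028212, chr4:11191351-11204779) measured 29.2, 27.6 and 33.3 CPM in stimulated WT CD4+ libraries, against 0, 3.23 and 3.59 CPM in resting ones (3.61 ± 0.38). WT CD8+ cells had 34.3, 20.9 and 27.7 CPM stimulated, against 2.84, 0.821 and 2.44 CPM resting (3.69 ± 0.41) from resting libraries of 1 to 4 counts. The stimulated and resting libraries of Ccne2 were again apart in both subsets. In Raptor KO cells the rises of Ccne1 were 2.32 ± 0.26 in CD4+ and 1.42 ± 0.24 in CD8+ cells, and those of Ccne2 2.29 ± 0.36 and 2.49 ± 0.36. Ccne2 shares 609 exon bases with Ints8 on the opposite strand, which was at 29.2 to 33.6 CPM in stimulated and 24.1 to 37.6 CPM in resting WT CD4+ libraries.

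Of the kinases, Cdk4 (ENSMUSG00000006728, chr10:127063534-127067920), a partner of the D-type cyclins, rose in all 4 settings. It measured 102, 109 and 113 CPM in stimulated WT CD4+ libraries, against 20.9, 18.1 and 21.6 CPM in resting ones (2.42 ± 0.16, adjusted p = 1.44e-16). WT CD8+ cells had 90.7, 119.9 and 122 CPM stimulated, against 25.5, 23.8 and 26.8 CPM resting (2.12 ± 0.16). The stimulated groups of all genotypes lay between 108 and 115 CPM on average and overlapped each other in the order of levels. The rises in Raptor KO cells were 1.83 ± 0.15 in CD4+ and 1.62 ± 0.15 in CD8+ cells. Cdk4 shares 641 exon bases with Tspan31 on the opposite strand, and Tspan31 was at 13.6 to 20.1 CPM in stimulated and 4.62 to 5.81 CPM in resting WT CD4+ libraries. Whether its reads reached Cdk4 was not tested.

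Cdk6 (ENSMUSG00000040274, chr5:3341485-3531008), the other partner of the D-type cyclins, measured 206, 267 and 224 CPM in stimulated WT CD4+ libraries, against 39.0, 29.0 and 71.4 CPM in resting ones (2.31 ± 0.39, adjusted p = 3.66e-05). WT CD8+ cells had 276, 288 and 259 CPM stimulated, against 43.3, 41.9 and 158 CPM resting (1.74 ± 0.37, adjusted p = 0.000511). The resting library numbered 3 stood highest in all 4 resting groups, by the widest margin in WT CD8+ cells, yet below every stimulated library. In Raptor KO cells the rises were 2.31 ± 0.39 in CD4+ and 2.11 ± 0.38 in CD8+ cells. Per kilobase of exon, Cdk6 stood below Cdk4 in every library except that 1 resting WT CD8+ library, where the ratio of Cdk6 to Cdk4 was 1.37. It shares 368 exon bases with Gm17590 on the opposite strand, which had at most 11 counts in any library.

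Cdk2 (ENSMUSG00000025358, chr10:128697939-128705031), the partner of cyclin E, rose in both subsets from unequal resting levels. It measured 47.7, 53.0 and 50.3 CPM in stimulated WT CD8+ libraries, against 12.1, 13.1 and 12.2 CPM in resting ones (2.01 ± 0.20, adjusted p = 1.1e-11). In WT CD4+ cells it measured 62.3, 57.9 and 70.7 CPM stimulated, against 30.6, 36.8 and 32.4 CPM resting (0.94 ± 0.16, adjusted p = 3.05e-06). The difference between these 2 rises was not tested. In Raptor KO cells the rises were 1.62 ± 0.18 in CD8+ and 1.42 ± 0.17 in CD4+ cells.

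Among the inhibitors, Cdkn1b (ENSMUSG00000003031, chr6:134920401-134925513) fell furthest of all members. It measured 25.9, 18.3 and 18.2 CPM in stimulated WT CD4+ libraries, against 271, 235 and 224 CPM in resting ones, 11.9-fold lower (log2 fold change -3.58 ± 0.21, adjusted p = 1.04e-15). In WT CD8+ cells it measured 25.2, 25.2 and 22.6 CPM stimulated, against 175, 194 and 165 CPM resting, 7.32-fold lower (-2.87 ± 0.21). Every stimulated library of every genotype lay at or below 36.5 CPM and every resting library at or above 127 CPM. In Raptor KO cells the falls were -3.34 ± 0.22 in CD4+ and -3.16 ± 0.22 in CD8+ cells.

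The INK4 inhibitors behaved unlike p27. Cdkn2c (ENSMUSG00000028551, chr4:109660876-109667189) had 0 to 23 counts per library. It measured 10.3, 15.9 and 10.4 CPM in stimulated Raptor KO CD4+ libraries, against 1.33, 7.49 and 0 CPM in resting ones (1.83 ± 0.56, adjusted p = 0.00611). In Raptor KO CD8+ cells it measured 6.70, 12.0 and 3.92 CPM stimulated, against 1.83, 1.35 and 0 CPM resting (2.602 ± 0.75, adjusted p = 0.00348). In WT cells its difference was 1.15 ± 0.63 in CD4+ (adjusted p = 0.107) and 1.53 ± 0.68 in CD8+ cells (adjusted p = 0.05002). Both WT values passed under other settings. The CD4+ one did so with no filter (adjusted p = 0.0497), with totals that keep Rn45s (0.0407) and with a replicate block (0.0449). With totals that keep Rn45s it was 1.45, or 1.20 relative to the median of all genes. The CD8+ one passed with the replicate block (0.0141) and DESeq2 (0.0382) among others. Cdkn2d (ENSMUSG00000096472, chr9:21288410-21291407) ranged over group means of 13.7 to 22.4 CPM, with every neighbour in the order overlapping. Its largest difference with stimulation was -0.55 ± 0.28 in Raptor KO CD8+ cells (adjusted p = 0.0981). Those libraries did not overlap, at 10.9 to 16.9 CPM stimulated and 18.3 to 28.4 CPM resting.

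**Figure D2:**
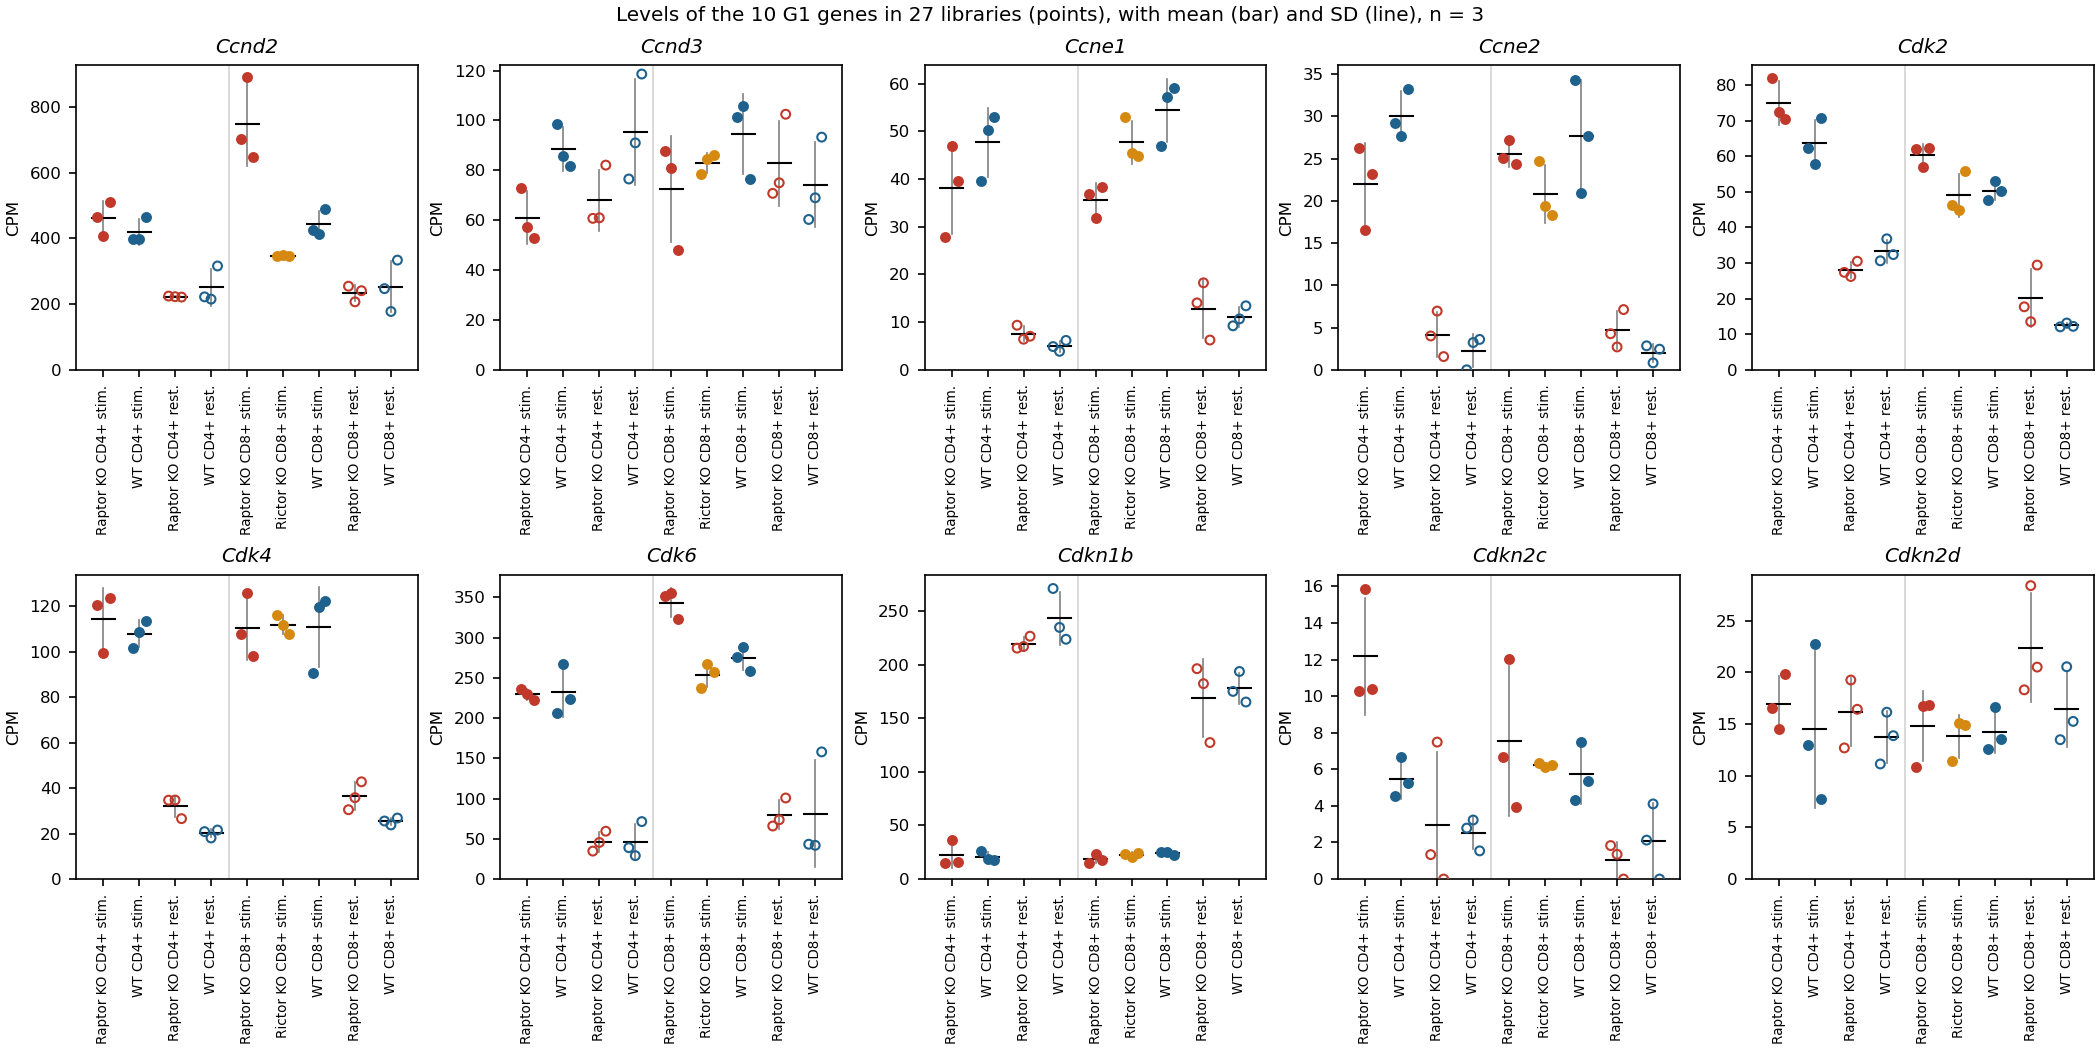
CPM of each member in every library, by group, with the mean (bar) and SD (line) of n = 3. Groups run from Raptor KO to WT and stimulated (filled) to resting (open), CD4+ left of the grey line and CD8+ right of it, with Rictor KO in CD8+. Cdkn1b is high in all resting libraries and the E-type cyclins, Cdk4 and Cdk6 in all stimulated ones.

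Summed by role and put per kilobase of exon, the 3 inhibitors among the members exceeded cyclins E in WT cells at rest. Cyclins E exceeded these 3 in stimulated WT cells. Cdkn1a (p21), which rose with stimulation as described below, is not a member and not in the sum. Cdkn2c and Cdkn2d, which are in it, bind CDK4 and CDK6, so the sum does not measure the inhibitors of cyclin E. In stimulated Raptor KO CD4+ cells the sums overlapped, with cyclins E at 20.6 ± 2.32 and inhibitors at 20.2 ± 2.79 CPM per kb. In WT CD4+ cells the 3 inhibitors summed to 15.8 ± 5.06 CPM per kb stimulated and 63.1 ± 4.57 resting, and Cdkn1b was 30.8% of the stimulated and 84.6% of the resting sum (SD, n = 3 each). In the same cells the 2 cyclins E summed to 26.5 ± 3.14 CPM per kb stimulated and 2.52 ± 0.767 resting, and the 3 kinases to 60.1 ± 3.45 and 14.9 ± 1.81. In WT CD8+ cells the inhibitors summed to 16.5 ± 2.02 CPM per kb stimulated and 50.3 ± 5.98 resting, and the cyclins E to 28.4 ± 1.55 and 4.75 ± 0.854. Of this sum of 3, Cdkn2d was the largest share in stimulated cells, at 55.6% in WT CD4+ and 54.7% in WT CD8+ cells.

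**Figure D3:**
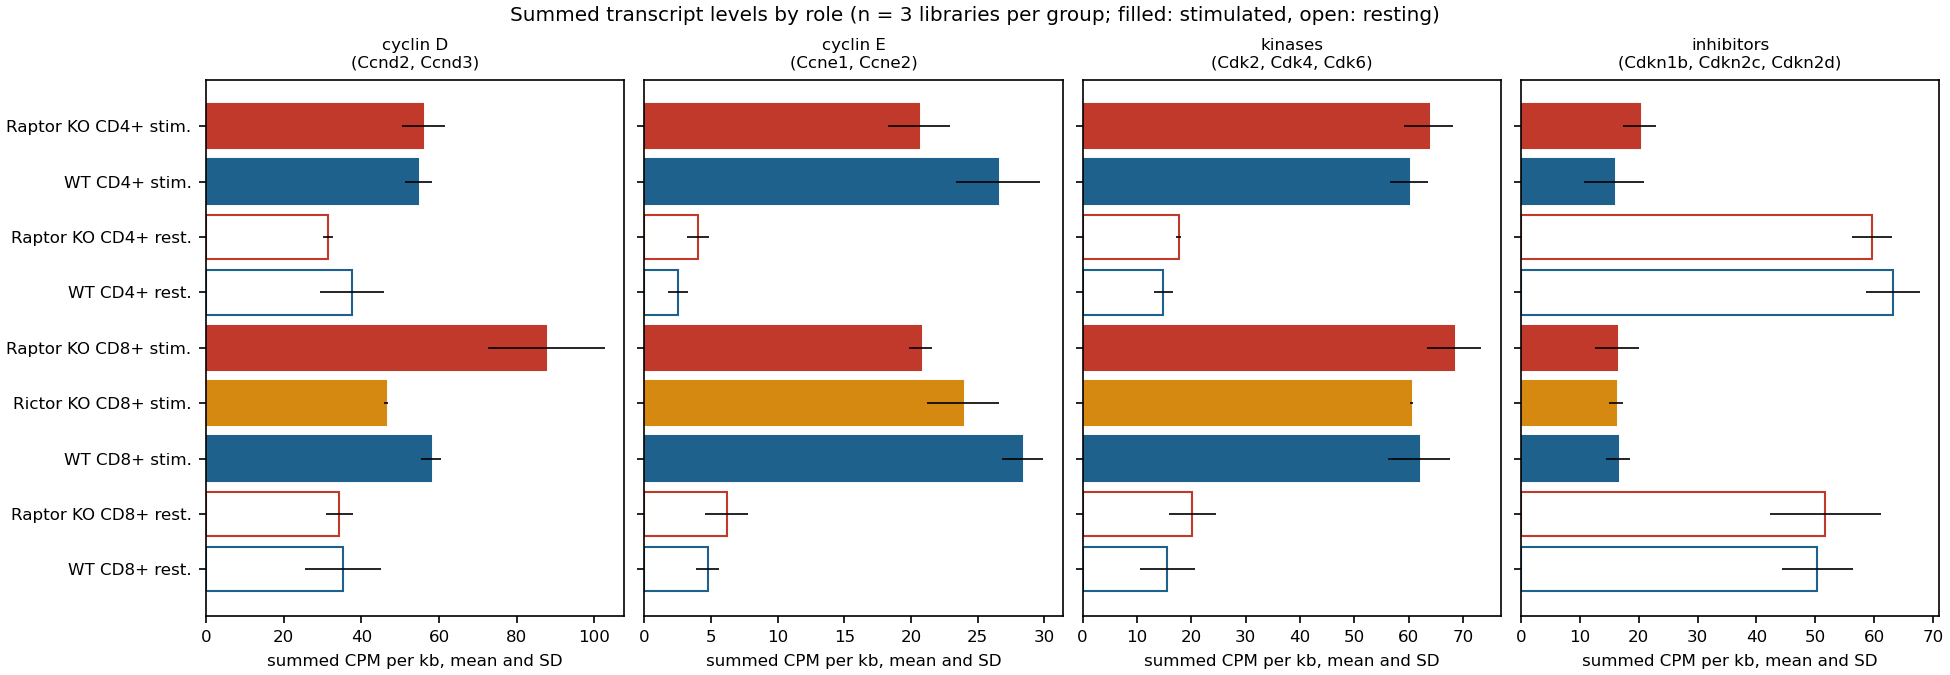
Summed CPM per kilobase of exon of the D-type cyclins, the E-type cyclins, the kinases and the inhibitors among the members (without Cdkn1a), as mean and SD of n = 3 libraries per group. Filled bars are stimulated and open bars resting groups. Mean inhibitor sums are lower in every stimulated than in every resting group, and the means of the other 3 sums are higher.

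Most of the tested genes around these members rose with stimulation. A list of 46 pathway genes, chosen like the members with earlier results of these data known, had 42 tested: Ccnd1, Cdkn1c, Cdkn2a and Cdkn2b had at most 6 counts in any library. Of the 42, 31 rose and 5 fell in Raptor KO CD4+, 30 rose and 5 fell in WT CD4+, 29 rose and 3 fell in Raptor KO CD8+ and 30 rose and 5 fell in WT CD8+ cells. In the same order, 27.9%, 32.4%, 29.5% and 32% of all genes were called higher and 24.1%, 32.5%, 26% and 30.8% lower. All 12 E2F target genes of S phase entry rose in the 4 settings, and their median log2 fold change was 2.83 in Raptor KO CD4+, 3.15 in WT CD4+, 2.81 in Raptor KO CD8+ and 2.93 in WT CD8+ cells. Rrm2, a subunit of ribonucleotide reductase, rose by 7.00 ± 0.32 in WT CD4+ cells, and Cdc6, which loads the replicative helicase, by 5.11 ± 0.49, and the same pair moved most in the other settings.

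E2F and DP factors rose in 8 of 10 cases in Raptor KO CD4+ cells and 7 of 10 in each of the others, with 1 falling in WT CD8+ cells. Over all genes, 27.9% to 32.4% were called higher in these settings. E2f8, a repressor E2F, measured 26.8 ± 3.84 CPM in stimulated and 0.232 ± 0.402 CPM in resting WT CD4+ cells. In WT CD8+ cells it measured 18.0 ± 2.64 CPM stimulated and had no count at rest, at least 25.6-fold higher against a floor of 3 counts over the group, and E2f7 was at least 8.43-fold higher. The floor covers counting error only. Tfdp1, the DP partner, reached 115 ± 22.4 CPM in stimulated against 2.03 ± 0.0792 CPM in resting WT CD4+ cells. E2f8 measured 21.3 ± 2.45 CPM in stimulated and 0.178 ± 0.309 CPM in resting Raptor KO CD4+ cells, and was at least 20.4-fold higher in stimulated Raptor KO CD8+ cells. E2f1, an activator E2F, measured 24.5 ± 2.49 CPM in stimulated and 0.891 ± 1.54 CPM in resting Raptor KO CD4+ cells, and 24.8 ± 4.88 CPM in stimulated and 0.704 ± 0.631 CPM in resting Raptor KO CD8+ cells.

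Of the pocket proteins, which hold E2F factors in check, Rbl2 fell in all 4 settings, with log2 fold changes of -1.72 ± 0.24 in Raptor KO CD4+, -1.53 ± 0.22 in WT CD4+, -1.77 ± 0.23 in Raptor KO CD8+ and -1.81 ± 0.21 in WT CD8+ cells. Rb1 fell in Raptor KO CD4+ (-0.70 ± 0.18) and WT CD4+ cells (-1.12 ± 0.18) and rose by 0.67 ± 0.20 in Raptor KO CD8+ cells. Rbl1, the remaining pocket protein, rose in both settings of Raptor KO cells. Of the 3 pocket proteins, 1 rose and 2 fell in Raptor KO CD4+ and 2 fell in WT CD4+ cells. In CD8+ cells 2 rose and 1 fell with Raptor deleted, and 1 fell in WT. Of all genes, 24.1% to 32.5% were called lower and 27.9% to 32.4% higher in these settings. The other cyclin and inhibitor tested, Ccna2 and Cdkn1a (p21), rose in each setting. Ccna2 measured 86.3 ± 9.75 CPM in stimulated and 0.850 ± 0.473 CPM in resting WT CD4+ cells. Cdkn1a measured 100.4 ± 27.9 CPM in stimulated and 0.806 ± 0.721 CPM in resting WT CD4+ cells. The stimulated Cdkn1a level was 19.0 ± 3.86 CPM in Raptor KO CD4+ and 20.8 ± 11.9 CPM in Raptor KO CD8+ cells, against 0.535 ± 0.926 and 1.02 ± 0.659 CPM at rest.

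The counts of the next lists stand beside 27.9% of all genes called higher in Raptor KO CD4+, 32.4% in WT CD4+, 29.5% in Raptor KO CD8+ and 32% in WT CD8+ cells, and some are near those shares. Genes of p27 and cyclin E degradation rose in 4 of 6 cases in Raptor KO and WT CD4+ and in WT CD8+ cells, with 1 lower in WT CD4+, and in 3 of 6 in Raptor KO CD8+ cells. Cks1b, the cofactor with which SKP2 binds p27, rose by 4.68 ± 0.39 in WT CD4+ cells and was at least 67.0-fold higher in WT CD8+ cells, and Skp2, the ubiquitin ligase subunit that targets p27, rose by 1.26 ± 0.37 in WT CD4+ and 0.95 ± 0.38 in WT CD8+ cells. Cks1b rose by 4.33 ± 0.41 in Raptor KO CD4+ and 4.40 ± 0.40 in Raptor KO CD8+ cells. The rise of Skp2 was 1.58 ± 0.37 in Raptor KO CD4+ and 1.82 ± 0.40 in Raptor KO CD8+ cells. CDK activation genes rose in 3 of 5 cases in Raptor KO CD4+, 4 in WT CD4+, 2 in Raptor KO CD8+ and 4 in WT CD8+ cells. Cdc25a, a phosphatase that activates CDK2, rose by 2.596 ± 0.22 and Mnat1, of the CDK-activating kinase, by 1.21 ± 0.32 in WT CD4+ cells. Both also rose in the other settings, Cdc25a by 2.15 to 2.86 and Mnat1 by 1.11 to 1.63. Of 4 upstream factors, Myc rose in all 4 settings, by 2.23 ± 0.29 in Raptor KO CD4+, 2.39 ± 0.29 in WT CD4+, 2.61 ± 0.29 in Raptor KO CD8+ and 2.27 ± 0.29 in WT CD8+ cells, while 3 of the others fell in Raptor KO CD4+, 2 in WT CD4+, 2 in Raptor KO CD8+ and 3 in WT CD8+ cells. The one that fell most was Foxo3 in Raptor KO CD4+ (-0.60 ± 0.16), Foxp1 in WT CD4+ (-0.95 ± 0.13), Foxo3 in Raptor KO CD8+ (-1.09 ± 0.17) and Foxo1 in WT CD8+ cells (-0.92 ± 0.18).

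Loss of Raptor was compared with WT in stimulated cells. In CD8+ cells 2 of the 10 members were called, beside 11.7% of all genes: Ccnd2 was higher (6.3% of all genes were called higher) and Ccne1 was lower (5.42% were called lower). Ccnd2 measured 701, 891 and 649 CPM in stimulated Raptor KO CD8+ libraries, against 425, 413 and 490.1 CPM in WT ones. All 3 Raptor KO libraries lay above all 3 WT libraries, and the log2 fold change was 0.75 ± 0.16 (adjusted p = 0.00127), or 1.69-fold. Ccne1 measured 36.8, 31.9 and 38.4 CPM in Raptor KO, against 46.9, 57.3 and 59.1 CPM in WT libraries, 1.52-fold lower (-0.61 ± 0.19, adjusted p = 0.0260). These groups did not overlap either, but leaving out any of 4 libraries (WT 2 or 3, Raptor KO 1 or 2) ended the Ccne1 call.

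The Ccnd2 difference was also larger after stimulation than at rest: the stimulation effect in Raptor KO minus that in WT CD8+ cells was 0.87 ± 0.23 (adjusted p = 0.0277), the 1 member of 10 called there, beside 2.89% of all genes (1.7% higher). The call ended when any of 6 libraries was left out (WT resting 1 or 3, WT stimulated 1 or 2, Raptor KO resting 2, Raptor KO stimulated 2), with differences of 0.61 to 0.88. With DESeq2 it missed the threshold (adjusted p = 0.0517), as it did with no filter (0.0548). With totals that keep Rn45s neither the Ccnd2 nor the Ccne1 difference passed: the median of all genes then shifted by -0.49, and the Ccnd2 difference was 0.22, or 0.71 relative to that median. The Ccne1 difference was then -1.14 (adjusted p = 0.0665), or -0.65 relative to that median. Protein-coding genes held 31.8% to 47.8% of counts without Rn45s in stimulated Raptor KO CD8+ and 49.9% to 62.5% in stimulated WT CD8+ libraries. Markers of myeloid cells summed to 34.0 to 53.7 CPM in stimulated Raptor KO CD8+ and 26.8 to 34.8 CPM in stimulated WT CD8+ libraries, with 5 of 7 markers detected in each group, Itgam and Cd14 at 0 in Raptor KO and Lyz2 and Itgam at 0 in WT. The part of either in these differences was not tested.

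In stimulated CD4+ cells none of the 10 members was called between Raptor KO and WT, beside 17.4% of all genes (8.82% higher and 8.56% lower), and 2 had an unadjusted p under 0.05. Those were Ccnd3 and Cdkn2c. Ccnd3 measured 72.9, 57.2 and 52.9 CPM in Raptor KO, against 98.6, 85.6 and 81.7 CPM in WT libraries, without overlap (-0.53 ± 0.20, adjusted p = 0.0667). It passed with median-ratio size factors (adjusted p = 0.0390), with no filter (0.0088) and without the Raptor KO library 1 (0.0465). Cdkn2c measured 10.3, 15.9 and 10.4 CPM in Raptor KO, against 4.54, 6.68 and 5.23 CPM in WT libraries (1.11 ± 0.48, adjusted p = 0.109), and passed with the replicate block (0.0390). Ccnd2 gave 0.14 ± 0.16 (95% interval -0.18 to 0.45), and the Raptor effect on Ccnd2 in CD8+ minus that in CD4+ cells, 0.62 ± 0.23, did not pass (adjusted p = 0.328). None of the members was called for that difference, beside 0.334% of all genes, where 1 had an unadjusted p under 0.05, nor for the difference of stimulation effects in CD4+ cells, beside 5.82% (3.57% higher and 2.25% lower), where 4 did. DESeq2 called 0 members in all 3. Protein-coding genes held 33.4% to 46.5% of counts without Rn45s in stimulated Raptor KO CD4+ and 38.9% to 63.6% in stimulated WT CD4+ libraries. Myeloid markers summed to 35.3 to 43.5 CPM in stimulated Raptor KO CD4+ and 14.3 to 19.0 CPM in WT CD4+ libraries, with 4 of 7 detected in each group (Itgam, Cd14 and Fcer1g at 0 in Raptor KO, Lyz2, Itgam and Fcer1g in WT), and the part of either was not tested.

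**Figure D4:**
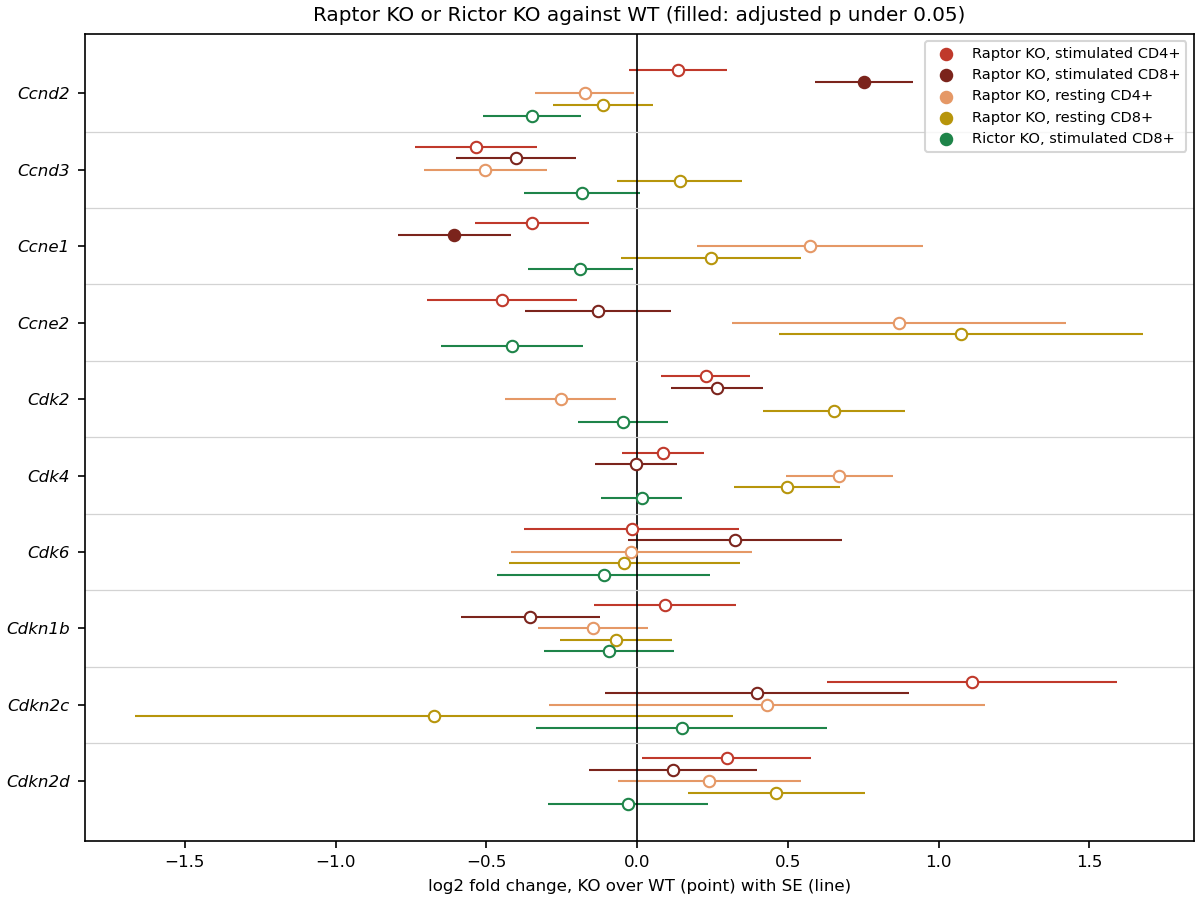
Log2 fold change of each member, Raptor KO or Rictor KO over WT, in stimulated and resting CD4+ and CD8+ cells. Points are estimates from edgeR, lines are 1 SE, and filled points passed an adjusted p of 0.05. The filled points are Ccnd2 at 0.75 and Ccne1 at -0.61 in stimulated Raptor KO CD8+ cells.

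Among the pathway genes, 3 were higher and 3 lower in stimulated Raptor KO than WT CD8+ cells, and 2 were higher and 5 lower in CD4+ cells, of 42 tested in each. These shares are near the 11.7% of all genes called in CD8+ and the 17.4% called in CD4+ cells. Cdkn1a was lower in both subsets, at 20.8 ± 11.9 CPM in Raptor KO and 82.6 ± 23.3 CPM in WT CD8+ cells (-2.08 ± 0.38, adjusted p = 0.0012), and at 19.0 ± 3.86 CPM in Raptor KO and 100.4 ± 27.9 CPM in WT CD4+ cells (-2.40 ± 0.38, adjusted p = 0.000227). Tfdp2, a DP factor, was higher in both, by 1.19 ± 0.27 in CD8+ and 0.86 ± 0.27 in CD4+ cells. In CD8+ cells E2f2 (0.66 ± 0.22) and E2f3 (0.59 ± 0.18) were also higher, while Foxo3 (-0.80 ± 0.16) and the helicase subunit Mcm4 (-0.55 ± 0.15) were lower. In CD4+ cells Rbl1 (0.51 ± 0.18) was higher, while E2f4 (-0.83 ± 0.18), Rrm2 (-0.71 ± 0.18), Skp1a (-0.59 ± 0.17) and Ccna2 (-0.46 ± 0.16) were lower. The stimulation effect on Ccna2 in CD4+ cells was smaller in Raptor KO than in WT, a difference of -2.36 ± 0.65 (adjusted p = 0.0224), a value that rests on resting levels of 3.14 ± 1.14 CPM in Raptor KO and 0.850 ± 0.473 CPM in WT cells.

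In resting cells no member was called between Raptor KO and WT in CD4+ cells, where 0.143% of all genes were (0.0953% higher and 0.0477% lower), or in CD8+ cells, where 1.12% were (0.505% higher and 0.619% lower), and 2 members had an unadjusted p under 0.05 in each. DESeq2 likewise called 0. The lowest adjusted p in each subset was that of Cdk4, with 34.7, 34.8 and 26.6 CPM in resting Raptor KO against 20.9, 18.1 and 21.6 CPM in WT CD4+ libraries (0.67 ± 0.18, adjusted p = 0.171), and 30.5, 35.8 and 42.8 CPM in Raptor KO against 25.5, 23.8 and 26.8 CPM in WT CD8+ libraries (0.50 ± 0.18, adjusted p = 0.235). In both subsets the libraries did not overlap. Cdk2 in resting CD8+ cells gave 0.65 ± 0.24 (adjusted p = 0.288). Markers of NK and gamma-delta T cells summed to 17.6 to 41.5 CPM in resting Raptor KO and 7.80 to 9.15 CPM in resting WT CD8+ libraries, with 4 of 5 markers detected and Klra8 at 0 in both groups, and their part was not tested. No pathway gene was called at rest.

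The ratio of Ccnd2 to Ccnd3, per kilobase of exon, brought the 2 cyclins together. It was 7.44, 10.3 and 12.5 in stimulated Raptor KO CD8+ libraries, against 3.92, 3.64 and 5.99 in WT ones, and 5.96, 6.63 and 8.99 in stimulated Raptor KO CD4+ libraries, against 3.76, 4.32 and 5.29 in WT ones. The ratio was higher in every stimulated Raptor KO than in every stimulated WT library of the same subset. In resting groups it lay between 2.19 and 3.82, and in stimulated Rictor KO CD8+ libraries at 4.14, 3.87 and 3.74. Ccnd2 made 90.6% of the D-type sum in stimulated Raptor KO CD8+ and 81.3% in WT CD8+ cells, a sum of 87.6 ± 15.0 CPM per kb in Raptor KO and 57.8 ± 2.58 in WT (SD, n = 3 each). No test was made of these ratios.

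**Figure D5:**
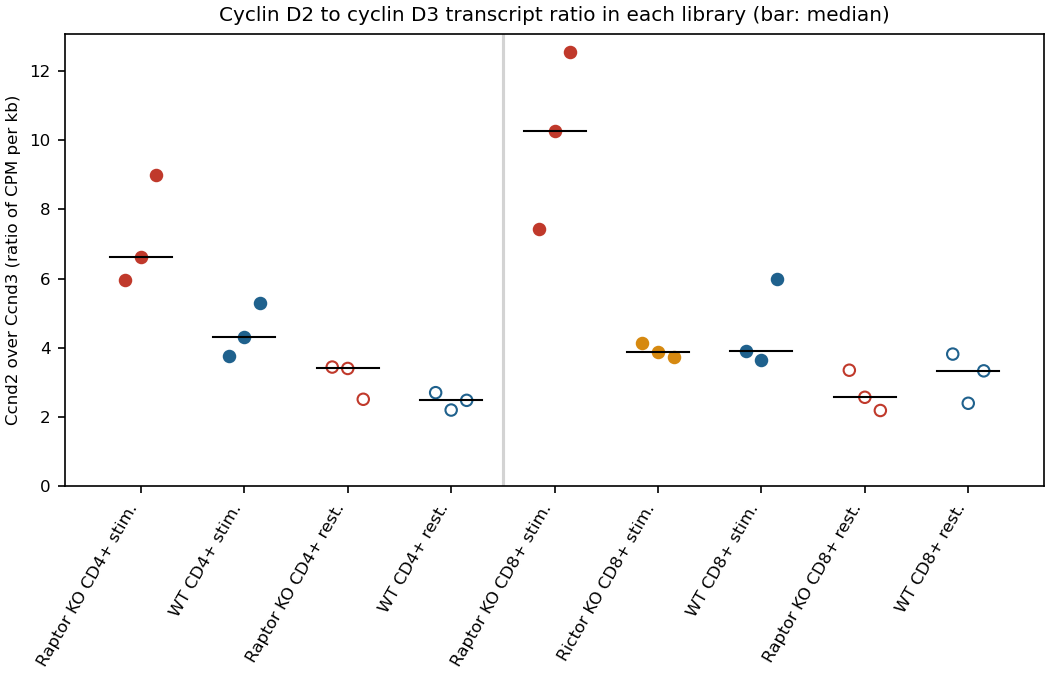
Ratio of Ccnd2 to Ccnd3 levels per kilobase of exon in each library, by group, with the median as a bar. Filled points are stimulated and open points resting libraries. The stimulated Raptor KO libraries lie at 5.96 to 12.5, above the stimulated WT libraries of the same subset, and the resting ones between 2.19 and 3.82.

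Rictor KO was compared with WT in stimulated CD8+ cells, and no member was called, with 0.162% of all genes called (0.105% higher and 0.0572% lower), a lowest adjusted p of 0.769 and 1 member with an unadjusted p under 0.05. DESeq2 also called 0. Ccnd2 measured 348, 349.8 and 346 CPM in Rictor KO, against 425, 413 and 490.1 CPM in WT libraries, without overlap (-0.35 ± 0.16). Intervals of the other differences included 0, from -0.88 to 0.05 for Ccne2 to -0.80 to 1.09 for Cdkn2c. Of the pathway genes 1 was called, Cdkn1a, at 23.6 ± 8.42 CPM in Rictor KO and 82.6 ± 23.3 CPM in WT cells (-1.75 ± 0.35, adjusted p = 0.0449). This call ended when WT library 1 or 2 or Rictor KO library 1 or 3 was left out, as 0 genes were then called lower. All 3 Rictor KO libraries carry the library code StP219, which 1 of the 3 libraries of each other group has, so code and genotype can be compared only through single libraries. With that code alone Ccnd2 was 346 to 349.8 CPM in Rictor KO and 490.1 CPM in the 1 WT library.

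Against Raptor KO, Rictor KO stimulated CD8+ cells had 1 member called, Ccnd2 (8.3% of all genes were called lower, 7% higher and 15.3% in all). It measured 348, 349.8 and 346 CPM in Rictor KO, against 701, 891 and 649 CPM in Raptor KO libraries, 2.15-fold lower (-1.10 ± 0.16, adjusted p = 3.65e-06). The 2 groups did not overlap, and the library of code StP219 of Raptor KO was at 649 CPM. With totals that keep Rn45s the difference was -0.65 and not called, or -1.05 relative to the median of all genes. Ccne1 gave 0.42 ± 0.19 (adjusted p = 0.129). Of the 42 pathway genes tested 4 were higher in Rictor KO (E2f4, Ccna2, Foxo3 and Mcm4, by 0.46 to 0.59) and 3 lower (Tfdp2 at -1.38 ± 0.27, E2f2 at -0.82 ± 0.22 and E2f3 at -0.54 ± 0.18). Together their share is near the 15.3% of all genes called. This comparison shares the Raptor KO libraries with the one against WT.

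The subsets were compared within genotype and culture. In resting WT cells 1 member was called, Cdk2, which was lower in CD8+ cells (1.73% of all genes were called lower, 1.59% higher and 3.33% in all). Cdk2 measured 12.1, 13.1 and 12.2 CPM in CD8+ and 30.6, 36.8 and 32.4 CPM in CD4+ libraries, 2.67-fold lower (-1.41 ± 0.21, adjusted p = 1.36e-05). All 3 CD8+ libraries lay close together and below all CD4+ ones. Ccne1 measured 9.22, 10.7 and 13.4 CPM in CD8+ and 4.87, 3.87 and 6.16 CPM in CD4+ libraries (1.14 ± 0.35, adjusted p = 0.0612), and passed with the replicate block (0.0451). Among the pathway genes Rb1 was lower in resting CD8+ cells, at 23.8 ± 5.11 CPM against 61.6 ± 9.80 CPM in CD4+ cells (-1.38 ± 0.19, adjusted p = 3.02e-06). Cdk2 shares 34 exon bases with Pmel on the opposite strand, at 7.39 to 11.0 CPM in resting WT CD8+ and 2.78 to 15.4 CPM in resting WT CD4+ libraries.

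In resting Raptor KO cells no member was called, beside 3.15% of all genes (1.65% higher and 1.51% lower), with 2 at an unadjusted p under 0.05 and 0 called by DESeq2. Cdk2 measured 17.7, 13.5 and 29.4 CPM in CD8+ and 27.4, 26.2 and 30.5 CPM in CD4+ libraries (-0.51 ± 0.20, adjusted p = 0.230), and without the CD8+ library numbered 3 it was called (-0.86, adjusted p = 0.0170). Rb1 was lower in CD8+ cells there as well (-1.42 ± 0.20), as was Ccna2 at 0.500 ± 0.456 CPM in CD8+ and 3.14 ± 1.14 CPM in CD4+ cells. In stimulated WT cells no member was called by edgeR or DESeq2, beside 5.18% of all genes (3.08% higher and 2.11% lower), and 1 had an unadjusted p under 0.05, Cdk2 (-0.35 ± 0.15, adjusted p = 0.212). In stimulated Raptor KO cells Ccnd2 was called higher in CD8+ cells (2.73% of all genes were called higher, 2.63% lower and 5.36% in all), at 701, 891 and 649 CPM in CD8+ and 466, 407 and 510.1 CPM in CD4+ libraries (0.70 ± 0.16, adjusted p = 0.00442). The call ended without the CD4+ library 2 or without the CD8+ library 2. Foxo3 was lower there in CD8+ cells (-0.67 ± 0.17).

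Across the 9 groups the members fell into a few orders. For Ccnd2 the 4 resting groups overlapped at 223 to 253 CPM, stimulated Rictor KO CD8+ stood apart above them at 348 ± 2.07 CPM, stimulated WT CD4+, WT CD8+ and Raptor KO CD4+ overlapped at 419 to 461 CPM, and stimulated Raptor KO CD8+ stood apart at 747 ± 127 CPM. Cdk6 was likewise highest in stimulated Raptor KO CD8+ cells, at 343 ± 17.7 CPM and apart from stimulated WT CD8+ at 274 ± 14.8 CPM, though that difference did not pass (0.32 ± 0.35, adjusted p = 0.614). Cdk2 was lowest in resting WT CD8+ cells, apart from its neighbour, resting Raptor KO CD8+, though that difference did not pass (adjusted p = 0.288). Cdkn1b was apart between stimulated and resting groups, and between resting CD8+ (169 to 178 CPM) and resting CD4+ cells (219.8 to 243 CPM). Its difference between resting subsets did not pass in WT (-0.45, adjusted p = 0.240) or Raptor KO cells (-0.38, adjusted p = 0.397).

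Over the 27 libraries, which fall into a resting and a stimulated cluster, the genes with levels most like each member were named as a description. For Cdk4 they were Ncapd2, Ncapg and Bcl2l1 (Pearson r of log2 CPM 0.982, 0.979 and 0.977 among 6730 genes), for Ccne1 Ran, Idh3a and Lap3 (0.966, 0.965 and 0.964), for Ccne2 St6galnac4, Rrm1 and Uhrf1 (0.964, 0.956 and 0.953), and for Cdk6 Myc, Ppan and Rpl41 (0.976, 0.955 and 0.955). For Cdkn1b they were Tmem71, S1pr4 and Smad7 (0.988, 0.986 and 0.986), and for Ccnd2 Far1, Kdm2b and Ell2 (0.916, 0.912 and 0.911). For the members not called with stimulation the highest r was lower: Ccnd3 had Orc3 at 0.641 and Cdkn2d had Tbcel at 0.674. Cdk2 had Mcu at 0.952 and Cdkn2c, with its low counts, Hjurp at 0.877.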

How the data were processed

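RNA was measured in 27 libraries. The authors deposited a single table of raw gene counts. STAR 2.6.0a and GRCm38 are named in the submitters' processing notes, and how reads were counted (program, annotation, strand) is not given in the sources consulted. Rn45s, 81.1% to 88.4% of each library, was left out before scaling. Counts were tested with edgeR 4.0.16 in R 4.3.3 (low-count filter by group with minimum count 10 and total 15, TMM scaling, 1 mean per group over all 27 libraries, robust quasi-likelihood F tests, Benjamini-Hochberg at 0.05) in 17 contrasts, 3 of them differences of effects. The method was tested on simulated data. Alternatives tried were scaling by median-ratio size factors, dropping the filter or requiring over 5 CPM in 3 libraries, totals that keep Rn45s, a replicate block, DESeq2 1.42.0 and leaving out each library. Groups followed the labels. All 10 members were tested in every comparison. Outside the stimulation comparisons the text names the members called and some others, picked after their values were seen. From each pathway list it names the 2 called genes with the largest absolute change in each comparison described. Further called genes of short lists and E2f2, E2f3 and E2f4 were named after their values were seen. Members and lists were chosen with earlier results of these data known.

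Library numbers 1, 2 and 3 go with the codes StP212, StP213 and StP219, except for Rictor KO. The replicate block was by code, so it differs from the library number for Rictor KO. Numbers were checked for pairing: only in CD8+ against CD4+ resting Raptor KO cells was every same-number correlation of deviations over 0.1, at 0.290 or more, and the replicate block changed no member's call there. Replicates of a group all differed beyond counting error. Positions are from the GENCODE annotation of GRCm38, and promoters from RefSeq.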

Additional observations from a re-analysis of the deposited data

Results flagged for a closer look

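The stimulation effect on Ccnd2 differed between genotypes in CD8+ cells: 1.67 ± 0.17 in Raptor KO and 0.81 ± 0.16 in WT, a difference of 0.87 ± 0.23 on the log2 scale by the interaction test of edgeR (adjusted p = 0.0277, n = 3 libraries per group). All 3 stimulated Raptor KO libraries lay above all 3 stimulated WT libraries, while the resting libraries of both genotypes overlapped. The difference missed the threshold with DESeq2 (adjusted p = 0.0517), with no filter (0.0548) and with totals that keep Rn45s (0.840), and when any of 6 libraries was left out (0.61 to 0.88).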

How the results depend on the processing

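Of 2220 recomputed member values, 2181 kept their direction and side of the threshold, 19 lost a call, 20 gained one and 0 called values changed sign, and 141 uncalled values changed sign while staying uncalled. Cdkn2c and Ccne2, with few counts at rest, are limited by depth.

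Totals that keep Rn45s moved the median of all genes by over 0.1 in most contrasts, between -0.49 (Raptor KO against WT, stimulated CD8+) and 0.77 (stimulation in WT CD8+). They gave 0 called members for Raptor KO against WT in stimulated CD8+ cells (main 2), and 0 for Rictor KO against Raptor KO, for CD8+ against CD4+ stimulated Raptor KO cells and for the stimulation effect in CD8+ cells (main 1 each). Genes called over all 10493 then numbered 3260 for stimulation in Raptor KO CD4+ cells (1570 higher and 1690 lower; main 5453, 2924 and 2529), 686 for Raptor KO against WT in stimulated CD4+ (67 and 619; main 1823, 925 and 898), 458 in stimulated CD8+ (55 and 403; main 1230, 661 and 569) and 23 in resting CD8+ cells (15 and 8; main 118, 53 and 65). They numbered 5 for Rictor KO against WT (1 and 4; main 17, 11 and 6) and 517 against Raptor KO (402 and 115; main 1606, 735 and 871). For CD8+ against CD4+ they were 185 in resting WT (45 and 140; main 349, 167 and 182), 181 in stimulated WT (121 and 60; main 544, 323 and 221), 136 in resting Raptor KO (41 and 95; main 331, 173 and 158) and 178 in stimulated Raptor KO cells (123 and 55; main 562, 286 and 276). For the differences of stimulation effects they were 24 in CD4+ (5 and 19; main 611, 375 and 236) and 38 in CD8+ cells (5 and 33; main 303, 178 and 125), and 2 for the difference of Raptor effects (2 and 0; main 35, 18 and 17).

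Raptor KO against WT in stimulated CD4+ cells gave 1 called member with median-ratio size factors, 1 with no filter and 1 with the replicate block (main 0). The stimulation effect in CD8+ cells gave 0 with no filter and 0 with DESeq2 (main 1). With no filter 29 genes were called for Raptor KO against WT in resting CD4+ cells (main 15), 61 for Rictor KO against WT (main 17) and 75 for the difference of Raptor effects (main 35). With the replicate block Raptor KO against WT gave 34 called genes in CD4+ and 197 in CD8+ resting cells, 75 for the difference of Raptor effects, and 2 members for CD8+ against CD4+ resting WT cells (main 1). The stricter filter moved none of the counts by over 1.5 times. Over all 14 comparisons between groups, own-number correlations of deviations ran from -0.2975 to 0.514, and 23 of 42 libraries correlated best with their own number.

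Leaving out 1 library gave 0 to 1 called members for Raptor KO against WT in stimulated CD4+, 1 to 2 in stimulated CD8+ cells, 0 to 1 for CD8+ against CD4+ in resting and in stimulated Raptor KO cells, and 0 to 1 for the stimulation effect in CD8+ cells. Over all genes it gave 1138 to 1714 and 753 to 1100 for Raptor KO against WT in stimulated CD4+ and CD8+ cells, 58 to 97 in resting CD8+ cells, 1 to 27 for Rictor KO against WT, 997 to 1443 against Raptor KO, 199 to 264 for CD8+ against CD4+ resting Raptor KO cells, 375 to 664 for the stimulation effects in CD4+ cells and 17 to 45 for the difference of Raptor effects. The causes were not tested.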
